A study of Mus musculus with 15 samples.

Results

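Saa3, Lcn2, Ltf, Hp, Itih4 and Wfdc17 encode secreted defence proteins, and their RNA was followed through 15 libraries of mouse lung. These 6 genes of the 57010 in the count table were chosen by name as acute-phase and iron-binding proteins, with the silica, DMSO and control values already known, so for them those values are described and not tested. The libraries fell into 4 groups labelled as lung of C57BL/J mice. The silica_DMSO group (n = 4) was given a silica suspension as nasal drops and DMSO (dimethyl sulfoxide) on the second day. The silica group (n = 3) was given silica, the DMSO group (n = 4) the DMSO solution without silica, and the control group (n = 4) physiological saline. Lungs were taken at day 30. Age, dose and the number of animals behind a library are not given in the sources used here, so the spread measured is that between libraries.

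Acute-phase proteins are made in larger amounts when cytokines such as IL-6, IL-1 and TNF signal infection or injury. The liver is their best-known source, but airway and alveolar epithelium, macrophages and neutrophils make some of them locally. Several hold iron or heme away from microbes, by binding bacterial siderophores, ferric iron or free haemoglobin, and others bind lipids or inhibit proteases.

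The libraries labelled DMSO 7, silica_DMSO 4 and silica_DMSO 6 stood apart. Rag1, the recombinase of developing lymphocytes, was at 2541 to 3876 CPM (counts scaled to a common library total) in these 3 libraries and at most at 0.224 CPM in the other 12. Foxn1, the factor of thymic epithelium, was at 9.17 to 27.04 CPM in the 3 and at 0 in the 12. Sftpc, the surfactant protein of alveolar type 2 cells, was at 108 to 5090 CPM in the 3 and at 13855 to 39513 CPM in the 12. Levels and changes below are therefore those of the 12 libraries, namely silica_DMSO 2 and 5, silica 1, 2 and 7, DMSO 1, 4 and 6, and control 1, 2, 4 and 7. Fold changes with all 15 libraries are given where named, and not for every gene and comparison. Gene length also set libraries apart inside every group. In silica_DMSO 5, silica 7, DMSO 1, DMSO 4 and control 1, long genes (more than 3000 bases) held 11.5% to 24.2% of counts, and in the other 7 they held 34.03% to 44.9%. Wfdc17 (533 bases), Saa3 (555 bases), Lcn2 (908 bases) and Hp (1345 bases) are shorter than the median tested gene (2653 bases), while Ltf (2743 bases) and Itih4 (3531 bases) are longer. Totals ran from 17434649 to 20829960 counts per library, and all 6 genes passed the filter on low counts, with 17630 genes tested. In bulk tissue, a change in the number of cells of a type and a change in RNA per cell cannot be told apart.

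The promoters of 4 of the genes are shown because Saa3 and Lcn2 followed each other closely over the libraries, while Itih4 and Ltf lay on opposite sides of 0 in silica against DMSO lungs. They are RefSeq sequences of build GRCm38.p6, from 250 bases before to 50 bases after the start of the gene, read 5′ to 3′ on the strand of the gene. The deposited tables give no coordinates of their own. RefSeq held a promoter for 5 of the 6 genes. Capitals mark the letters TTGCNNAA of C/EBP, TTCNNNGAA of STAT, and GGG and TCC with NNNN between them for NF-kB, searched on both strands, and no match overlaps another.
Saa3, chr7:46715627-46715926, minus strand: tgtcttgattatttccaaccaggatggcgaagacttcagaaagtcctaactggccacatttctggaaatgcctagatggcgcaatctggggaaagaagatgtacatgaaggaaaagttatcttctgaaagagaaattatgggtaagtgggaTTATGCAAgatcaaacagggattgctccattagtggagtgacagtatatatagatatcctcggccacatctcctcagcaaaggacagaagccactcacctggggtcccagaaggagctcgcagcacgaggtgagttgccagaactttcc
Lcn2, chr2:32387690-32387989, minus strand: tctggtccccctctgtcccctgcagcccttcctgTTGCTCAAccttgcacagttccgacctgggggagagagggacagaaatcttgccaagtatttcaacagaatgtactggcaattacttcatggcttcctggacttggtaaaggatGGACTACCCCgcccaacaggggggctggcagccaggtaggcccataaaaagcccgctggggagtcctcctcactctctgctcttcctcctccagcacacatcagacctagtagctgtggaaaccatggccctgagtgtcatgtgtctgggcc
Itih4, chr14:30886226-30886525, plus strand: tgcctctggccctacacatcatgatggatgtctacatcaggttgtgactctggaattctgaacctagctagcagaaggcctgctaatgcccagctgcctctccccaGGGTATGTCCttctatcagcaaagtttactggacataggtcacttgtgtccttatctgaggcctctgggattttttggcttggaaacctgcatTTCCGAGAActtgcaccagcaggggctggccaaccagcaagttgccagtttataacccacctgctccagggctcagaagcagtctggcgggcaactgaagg
Ltf, chr9:111019042-111019341, plus strand: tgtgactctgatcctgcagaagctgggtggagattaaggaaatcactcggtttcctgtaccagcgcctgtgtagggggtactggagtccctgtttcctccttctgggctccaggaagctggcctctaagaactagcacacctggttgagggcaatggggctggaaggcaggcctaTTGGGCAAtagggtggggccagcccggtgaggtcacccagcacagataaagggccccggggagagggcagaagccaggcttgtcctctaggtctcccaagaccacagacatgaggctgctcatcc
The C/EBP letters occurred once in the Saa3 window (TTATGCAA on the opposite strand), once in that of Lcn2 (TTGCTCAA) and once in that of Ltf (TTGGGCAA on the opposite strand), and in 10.8% of the 32851 windows of the same length. The Itih4 window held none of those and held 1 match to the STAT letters (TTCCGAGAA), which 8.30% of windows hold. The NF-kB letters, found in 19.2% of windows, occurred once in the Lcn2 window (GGACTACCCC on the opposite strand) and once in that of Itih4 (GGGTATGTCC). The Wfdc17 window held none of the 3 motifs.

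By level per gene length, in TPM (transcripts scaled to gene length and library total, by the authors), Hp was the most abundant of the 6 in every library but those labelled silica 1, silica 2, silica_DMSO 4 and silica_DMSO 6. Over the 12 libraries it ran from 676 to 1916 TPM, with a median of 874 TPM. The median was 407 TPM for Lcn2, 126 TPM for Saa3, 115 TPM for Wfdc17, 47.7 TPM for Itih4 and 22.0 TPM for Ltf. Saa3 varied most, with a highest library 237 times the lowest in normalised CPM, and Hp least, with 8.06 times. Saa3 held a different place in the order in silica lungs. Saa3 averaged 435 ± 239 TPM in silica_DMSO lungs (SD, n = 2) and 880 ± 477 TPM in silica lungs (n = 3), and 85.7 ± 111 TPM in DMSO lungs (n = 3) and 26.4 ± 10.6 TPM in control lungs (n = 4). It was the third of the 6 in the silica lungs, below Lcn2 at 1489 ± 321 TPM and Hp at 1356 ± 615 TPM, and close to Wfdc17 in the controls, where Wfdc17 averaged 32.8 ± 11.4 TPM.

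**Figure D1:**
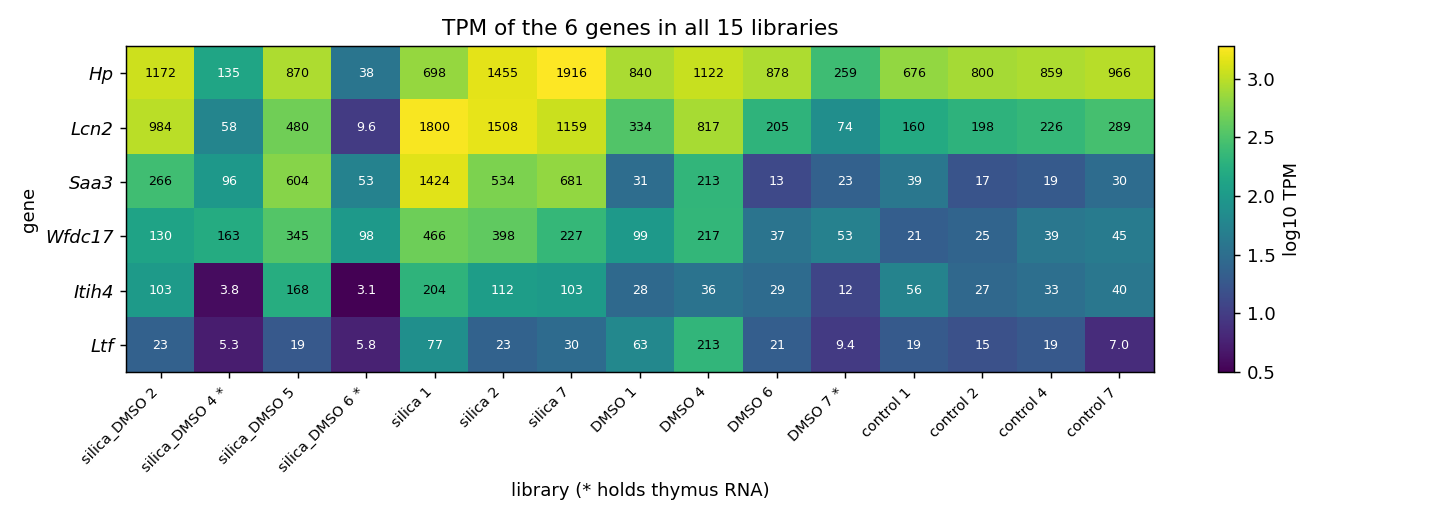
TPM of the 6 genes (rows) in each of the 15 libraries (columns), with colour on a log10 scale and the TPM printed in each cell. Itih4 lies between 103 and 204 TPM in the 5 libraries given silica and holding no thymus RNA, against 27.1 to 55.7 TPM in the 7 lung libraries without silica, while Ltf peaks at 213 TPM in DMSO 4.

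Saa3 (ENSMUSG00000040026) encodes serum amyloid A3, an acute-phase apolipoprotein that in the mouse is made mainly outside the liver, by macrophages, epithelium and fat. It reached 59.0 and 795 normalised CPM in silica_DMSO 2 and 5, and 259, 136 and 325 in silica 1, 2 and 7. It lay at 14.0, 193 and 3.36 normalised CPM in DMSO 1, 4 and 6, and at 21.01, 3.96, 3.63 and 7.87 in control 1, 2, 4 and 7. Every silica library was above every control, whereas DMSO 4 was above silica 2 and silica_DMSO 2. In TPM the 5 libraries given silica, at 265.8 or more, all lay above the 7 others, at 213 or less. The log2 fold change was 4.72 ± 1.30 (SE) for silica against control and 1.77 ± 1.29 for silica against DMSO. Without DMSO 4 the value against DMSO was 4.81. The Saa3 count of silica_DMSO 2, 1419.16, was not whole, the one such value among the 6 genes.

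Wfdc17 (ENSMUSG00000069792) encodes a small whey acidic protein domain protein known in the mouse from activated macrophages and microglia. It stood at 26.2 and 421 normalised CPM in silica_DMSO 2 and 5, at 77.2, 91.9 and 99.97 in silica 1, 2 and 7, at 40.9, 181 and 8.80 in DMSO 1, 4 and 6, and at 10.6, 5.33, 6.87 and 10.7 in control 1, 2, 4 and 7. In normalised CPM the silica libraries lay close together and above all controls, and DMSO 4 exceeded them. In TPM DMSO 4, at 217.31, lay below the silica libraries, at 227.09 to 465.54, and above silica_DMSO 2, at 130.19. The log2 fold change was 3.42 ± 0.95 for silica against control and 0.23 ± 0.97 for silica against DMSO, the second being 1.87 without DMSO 4.

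Lcn2 (ENSMUSG00000026822) encodes lipocalin-2, which binds the iron-carrying siderophores of bacteria and is made by neutrophils, macrophages and stimulated epithelium. It had 524 and 1414 normalised CPM in silica_DMSO 2 and 5, 799, 954 and 1228 in silica 1, 2 and 7, 359, 1757 and 126 in DMSO 1, 4 and 6, and 186, 113, 104 and 180 in control 1, 2, 4 and 7. In normalised CPM all silica libraries were above all controls, and DMSO 4 was the highest of the 12. In TPM DMSO 4, at 817, lay below every silica library, at 1159 to 1800, and above silica_DMSO 5, at 480. The log2 fold change was 2.77 ± 0.74 for silica against control and 0.41 ± 0.77 for silica against DMSO. Without DMSO 4 silica against DMSO gave 2.05, and with a correction for gene length it gave 1.35.

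Hp (ENSMUSG00000031722) encodes haptoglobin, the plasma protein that captures free haemoglobin. It had 1061 and 4249 normalised CPM in silica_DMSO 2 and 5, 528, 1580 and 3365 in silica 1, 2 and 7, 1530, 4074 and 915 in DMSO 1, 4 and 6, and 1297, 779, 673 and 1018 in control 1, 2, 4 and 7. The groups overlapped in each comparison, with silica 1 below every control in normalised CPM. The log2 fold change was 0.95 ± 0.71 for silica against control and -0.25 ± 0.77 for silica against DMSO. Without silica 7 they were 0.16 and -1.05, and without DMSO 4 the value against DMSO was 0.58. The albumin gene Alb, the commonest hepatocyte transcript, was at 10.3 CPM or less in the 12 libraries, where Hp was at 682 to 3227 CPM of the library total.

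Ltf (ENSMUSG00000032496) encodes lactoferrin, an iron-binding protein of neutrophil granules and of airway secretions. It had 33.0 and 96.4 normalised CPM in silica_DMSO 2 and 5, 81.2, 46.0 and 76.8 in silica 1, 2 and 7, 155, 1180 and 34.9 in DMSO 1, 4 and 6, and 26.5, 19.8, 17.3 and 17.4 in control 1, 2, 4 and 7. It was the one gene of the 6 whose mean was highest in the DMSO group. In normalised CPM DMSO 1 and DMSO 4 exceeded the highest library given silica, and DMSO 6 lay within the silica_DMSO range. In TPM DMSO 1, at 62.96, lay below silica 1, at 76.81. The log2 fold change was 1.75 ± 0.85 for silica against control, 4.49 ± 0.93 for DMSO against control and -2.75 ± 0.96 for silica against DMSO. Without DMSO 4 the last was -0.46. The neutrophil list as a whole (18 marker genes other than Lcn2 and Ltf) summed to 764 to 1190 CPM in silica_DMSO, 722 to 1887 in silica, 716 to 1789 in DMSO and 515 to 796 in control libraries, with the highest DMSO sum in DMSO 4. Chil3, also listed as an alveolar macrophage marker, held much of these sums, with 645 of 777 CPM in control 2, 544 of 722 in silica 1 and 701 of 1789 in DMSO 4. Of the 15 genes of the list that were tested, 12 were higher in DMSO than in control lungs (median log2 fold change 1.41). Against control 14 were higher in silica (median 1.51), and against DMSO 6 were (median -0.25). In DMSO 4, where Ltf was at 770 CPM, the neutrophil genes differed in level, with S100a9 at 374, Cd177 at 359 and S100a8 at 296 CPM, and the granule genes Camp at 2.76 and Ngp at 1.84 CPM. Camp was low in controls too, at 0 to 1.72 CPM, and Ngp was at 0.474 to 10.98 CPM there. In DMSO against control the log2 fold change was 3.15 ± 1.01 for Camp, 2.76 ± 0.80 for S100a8 and 2.45 ± 0.80 for S100a9, and edgeR called none of them. Mpo and Ctsg were at 0 in DMSO 4, and Elane was at 0 in silica_DMSO 5, silica 1, silica 2, DMSO 1, control 1, control 2 and control 7. Of the 12 markers of club and secretory epithelium, which also makes lactoferrin, 12 were higher in DMSO than in control lungs with a median log2 fold change of 1.51, and 2 were higher in silica than in DMSO lungs with a median of -0.80. Their summed level was 63229 to 156520 CPM in DMSO and 41757 to 138380 CPM in control libraries, with none at 0. It was 50749 to 161080 CPM in silica_DMSO and 12130 to 145430 CPM in silica libraries. Scgb1a1 held much of these sums, with 125880 of 156520 CPM in DMSO 4. In silica_DMSO 5, where the sum was 161080 CPM, Ltf was at 48.8 CPM. The part of these cells in the levels of Ltf and Lcn2 was not tested.

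Itih4 (ENSMUSG00000021922) encodes inter-alpha-trypsin inhibitor heavy chain 4, a plasma glycoprotein of the acute phase that is cleaved by kallikrein. It had 190 and 528 normalised CPM in silica_DMSO 2 and 5, 325, 243 and 223 in silica 1, 2 and 7, 57.3, 100.2 and 67.3 in DMSO 1, 4 and 6, and 74.1, 49.4, 56.8 and 81.8 in control 1, 2, 4 and 7. All 5 libraries given silica lay above all 7 not given silica, DMSO 4 included. That separation held in normalised CPM, in CPM of the library total (213 or more against 94.4 or less) and in TPM (103 or more against 55.7 or less). The log2 fold change was 2.01 ± 0.38 for silica against control, 1.82 ± 0.41 for silica against DMSO and 0.19 ± 0.38 for DMSO against control. With all 15 libraries these were 2.04 ± 1.21, 2.13 ± 1.22 and -0.088 ± 1.12, each with a larger SE. Hepatocyte markers (18 genes) summed to 31.5 to 35.7 CPM in silica_DMSO, 10.6 to 61.5 in silica, 14.9 to 31.9 in DMSO and 17.5 to 37.7 in control libraries. One gene of the list, Cyp2e1, held 7.06 of the 10.6 CPM in silica 1 and 30.5 of the 37.7 CPM in control 4. It held 5.10 of the 35.7 CPM in silica_DMSO 5. In silica 1, the library with the most Itih4 CPM of the library total (421), the hepatocyte sum was 10.6 CPM and 9 of the 18 genes were at 0. Of the 14 hepatocyte genes that could be tested, 13 were higher in silica than in control lungs (median 1.16) and 11 were higher in silica_DMSO than in DMSO lungs (median 1.41). Between DMSO and control lungs 12 were higher in DMSO (median 0.92), and between silica and DMSO lungs 9 were higher in silica (median 0.18). Their part in the level of Itih4 was not tested.

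**Figure D2:**
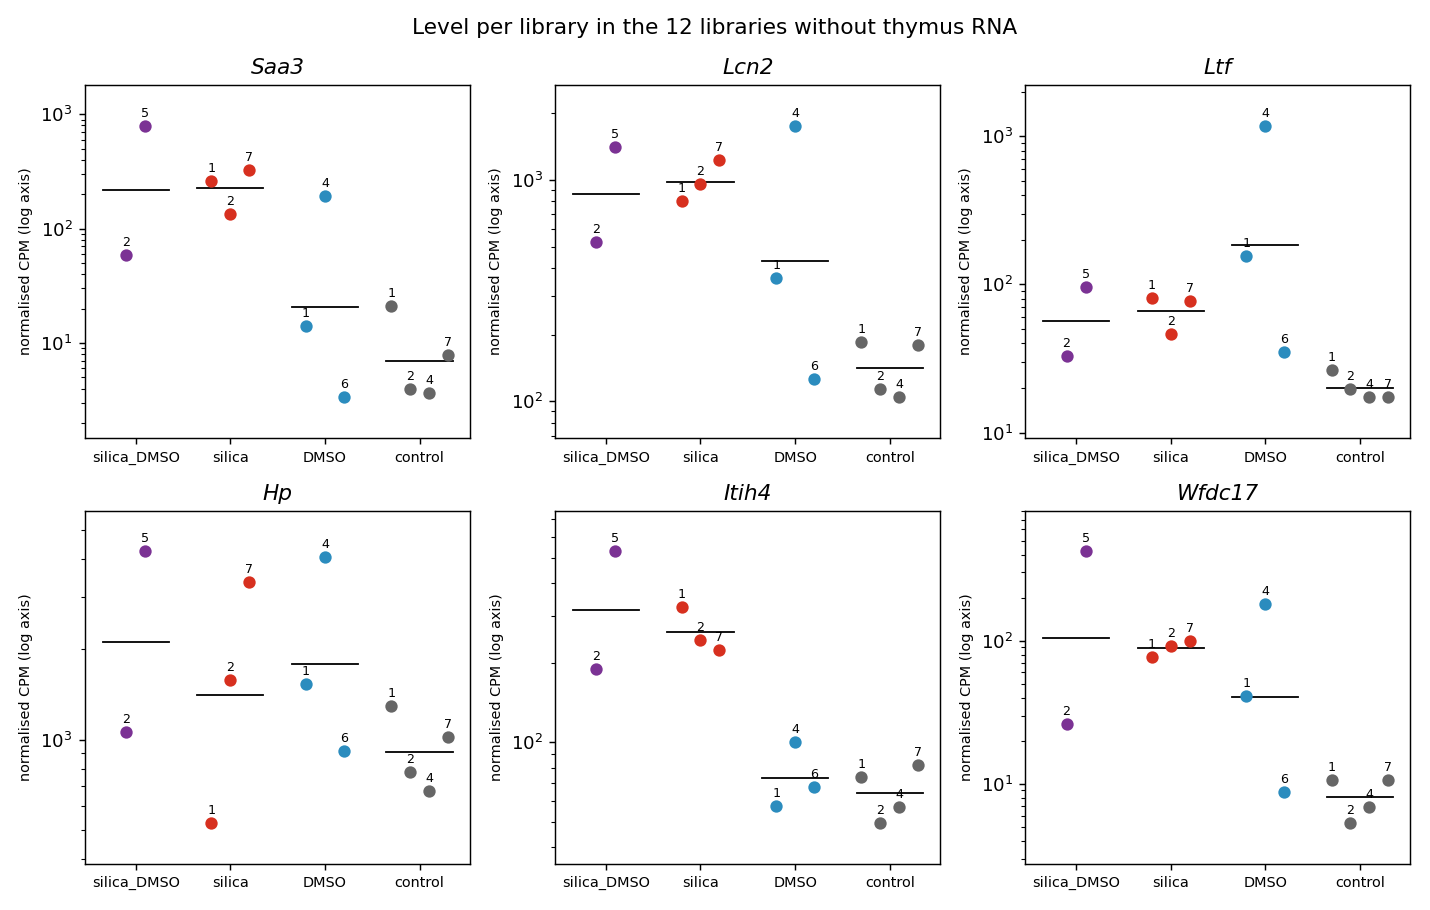
Normalised CPM (log axis) of each gene in the 12 libraries by group. Points are libraries with their label number and lines are group geometric means. Itih4 of all 5 libraries given silica, at 190 or more, lies above the 7 others, at 100.2 or less. On this scale DMSO 4 reaches or passes silica libraries for the other 5 genes, which does not hold for all of them in TPM.

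Across all genes, 5 of the 6 had every silica library above every control, and 5.41% of the 17630 tested genes did so in that direction, with 0 of the 6 and 5.19% of tested genes in the other. This comparison entered the choice of the 6, so nothing is read from that count. In it edgeR called 0.0113% of genes and DESeq2 0.839%. Between silica and DMSO libraries 1 of the 6, Itih4, was separated in that way in normalised CPM, against 3.96% of tested genes. In the other direction 0 of the 6 were, against 3.16%. EdgeR called 0.00567% of genes there and DESeq2 0.17%. By TPM the silica libraries also lay above all DMSO libraries for Saa3 (534 or more against 213 or less) and Lcn2 (1159 or more against 817 or less). The same held for Wfdc17 (227.09 or more against 217.31 or less), and not for Ltf and Hp. The share of all genes separated in TPM was not counted. Over all 5 libraries given silica and the 7 others, 0.624% of tested genes were separated as Itih4 was. The DMSO and silica values entered the choice too, and these shares are given as a description.

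Levels were also compared inside the sets of libraries that share a gene length pattern. In the 7 libraries rich in long genes, the 3 given silica lay above the 4 without for Saa3 (59.0 to 259 against 3.36 to 7.87 normalised CPM), Lcn2 (524 to 954 against 104 to 180), Itih4 (190 to 325 against 49.4 to 81.8) and Wfdc17 (26.2 to 91.9 against 5.33 to 10.7). Those are 4 of 6 genes, where 6.66% of tested genes were separated. In the same libraries Ltf was at 33.0 to 81.2 against 17.3 to 34.9, and Hp at 528 to 1580 against 673 to 1018. In the 5 libraries rich in short genes, Saa3 (325 and 795 against 14.0 to 193) and Itih4 (223 and 528 against 57.3 to 100.2) were separated, 2 of 6, against 4.15% of tested genes. Lcn2 was not, with 1228 and 1414 normalised CPM in the libraries given silica and 186 to 1757 in the 3 others. The silica, DMSO and control values entered the choice of the 6, so nothing is read from these counts either.

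The comparison of silica_DMSO with DMSO asks what silica did in lungs that also received DMSO. Its DMSO libraries entered the choice of the 6 genes, so for these genes it too is a description, with no p. Itih4 averaged 359 ± 239 normalised CPM in silica_DMSO lungs (SD, n = 2) and 75.0 ± 22.5 in DMSO lungs (n = 3), a log2 fold change of 2.26 ± 0.45. It was positive under all 20 alternatives, between 1.35 without silica_DMSO 5 and 2.80 without silica_DMSO 2, and was 1.58 ± 1.14 with all 15 libraries. In normalised CPM all silica_DMSO libraries lay above all DMSO libraries for 1 of the 6 genes, Itih4, against 4.73% of tested genes. They lay below them for 0 of the 6, against 5.03%. By TPM Saa3 was separated as well (265.8 or more against 213 or less). Over all genes edgeR called 0 (0%), with 335 (1.9%) at an unadjusted p under 0.05, and DESeq2 called 10 (0.0567%). Nothing is read from these counts for the 6 genes.

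Saa3 was at 2.61 ± 1.41 and Wfdc17 at 1.54 ± 1.07 on the log2 scale in silica_DMSO against DMSO, and both turned negative without silica_DMSO 5 (-0.24 and -1.54). Without DMSO 4 they were at 5.66 and 3.20. Lcn2 was at 0.38 ± 0.86 and Hp at 0.29 ± 0.85, and without silica_DMSO 5 at -0.51 and -1.02. Ltf was at -2.82 ± 1.14, and at -0.53 without DMSO 4.

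**Figure D3:**
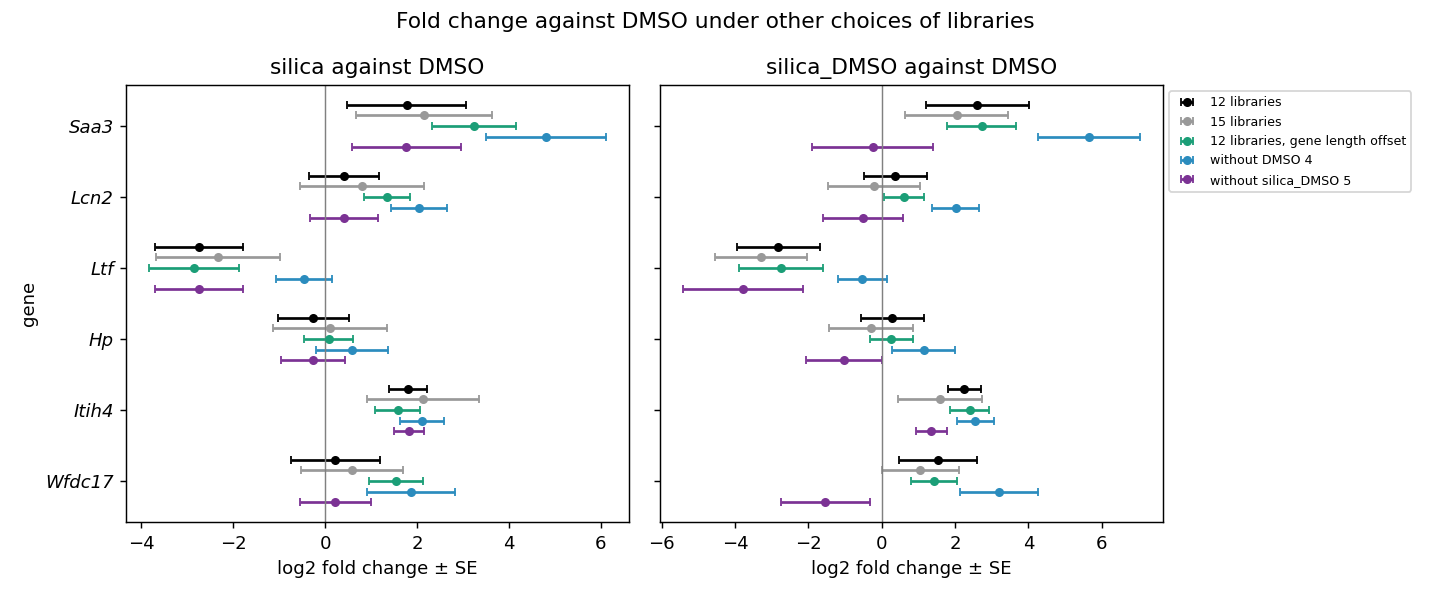
Log2 fold changes (± SE) of the 6 genes for silica against DMSO and silica_DMSO against DMSO, with 12 libraries, with 15, with a gene length correction, and without DMSO 4 or silica_DMSO 5. Itih4 stays between 1.35 and 2.56 in every setting drawn, while Saa3 in silica_DMSO against DMSO moves from -0.24 without silica_DMSO 5 to 5.66 without DMSO 4.

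The comparison of silica_DMSO with silica bears on the title of the series, the effect of DMSO in dust-exposed lungs. It shares the silica libraries with the choice of the genes and is described only. In normalised CPM the groups overlapped for all 6 genes, where 2.78% of tested genes had all silica_DMSO libraries higher and 3.83% all lower. By TPM the silica_DMSO libraries lay below all silica libraries for Lcn2 (983.72 or less against 1158.68 or more) and, narrowly, Ltf (22.7 or less against 23.27 or more). The share of all genes separated in TPM was not counted, so nothing is read from this. The log2 fold changes were 0.83 ± 1.38 for Saa3, 1.32 ± 1.07 for Wfdc17, -0.036 ± 0.86 for Lcn2, 0.54 ± 0.85 for Hp, -0.074 ± 1.01 for Ltf and 0.44 ± 0.45 for Itih4. Without silica_DMSO 5 the values were -2.02 for Saa3, -1.77 for Wfdc17, -0.91 for Lcn2 and -0.48 for Itih4.

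In DMSO against control, which shares its libraries with the comparisons above, the values were 2.94 ± 1.22 for Saa3, 2.36 ± 0.73 for Lcn2, 3.19 ± 0.94 for Wfdc17 and 1.21 ± 0.72 for Hp. Each was smaller without DMSO 4, where Saa3 was at -0.060, Lcn2 at 0.74, Wfdc17 at 1.58 and Hp at 0.39. Ltf of all 3 DMSO libraries lay above all 4 controls, as 3.71% of tested genes did (3.98% in the other direction), and its value was 2.24 without DMSO 4. In DMSO 4 the markers of monocytes and recruited macrophages (17 genes) summed to 1191 CPM, against 526 and 713 CPM in the other DMSO lung libraries and 471 to 616 CPM in the controls, and no gene of the list was at 0. In silica_DMSO and silica libraries that sum was 1381 to 1751 and 1552 to 3851 CPM. Its part in the levels of the 6 genes was not tested.

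**Figure D4:**
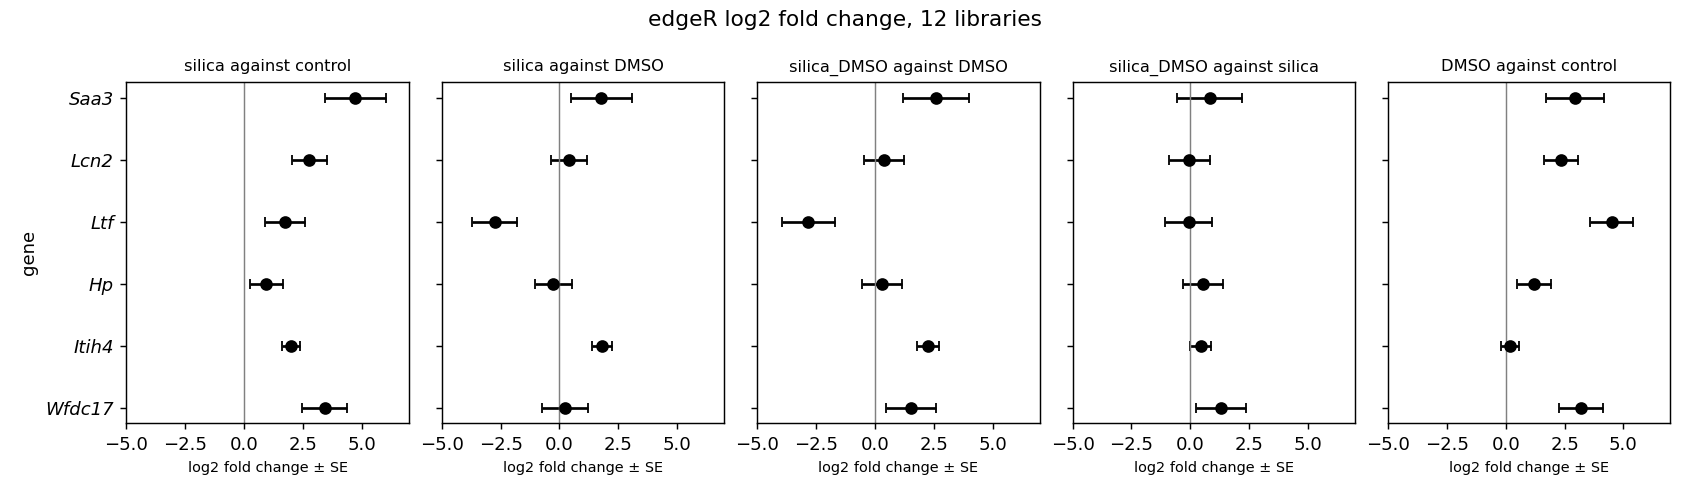
Log2 fold change (points) with its SE (bars) of each gene in 5 comparisons over 12 libraries, from edgeR. Itih4 lies at 2.01, 1.82 and 2.26 in the comparisons of silica with unexposed lungs and at 0.19 in DMSO against control, whereas Ltf lies at -2.75 in silica against DMSO and 4.49 in DMSO against control.

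The 6 genes were not alike in which other genes they followed. Of 13908 candidate genes, Saa3 was closest to Cdca3, Cxcl16 and Lcn2 over the 12 libraries (Pearson r of log2 CPM of 0.97, 0.96 and 0.96). Lcn2 was closest to Tnfrsf9, Cd14 and C1qc (r from 0.97 to 0.98). Wfdc17 was closest to Scimp, C1qb and Clec4n (r from 0.98 to 0.99). C1qb and C1qc encode complement subunits of macrophages, Cd14 the co-receptor for endotoxin and Clec4n a lectin receptor of myeloid cells. Ltf was closest to Agr2, Gjb1 and Apol7a (r from 0.95 to 0.97), of which Agr2 encodes a disulfide isomerase of mucus-secreting epithelium. Hp was closest to Anxa2, Bcap31 and Sdhc (r from 0.98 to 0.99). Itih4 was closest to Zranb3, Itga7 and Igf1 (r from 0.93 to 0.94). Among the 6, r was highest for Lcn2 with Wfdc17 (0.96) and lowest for Ltf with Itih4 (0.25). These are descriptions of 12 libraries that share group and gene length pattern.

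Other genes of the same pathways were tested in all comparisons, and edgeR called none of them, neither among acute-phase proteins nor in the 5 other lists. Of 26 tested acute-phase genes, 24 were higher in silica than in control lungs, with a median log2 fold change of 0.96 against -0.030 over all genes (9 at an unadjusted p under 0.05 in edgeR, as were 5.98% of all genes). Against DMSO lungs 17 of the 26 were higher in silica, with a median of 0.19, and 17 were higher in silica_DMSO, with a median of 0.77, and 4 in each comparison were higher at an unadjusted p under 0.05, as were 3.12% and 1.9% of all genes in either direction. In silica_DMSO against silica 0 were (1.94% of all genes), and in DMSO against control 4 were (8.62%). The smallest p in silica against control belonged to Il1rn, the IL-1 receptor antagonist. It averaged 40.9 ± 15.1 normalised CPM in silica_DMSO, 62.7 ± 5.46 in silica, 10.6 ± 6.17 in DMSO and 7.35 ± 1.999 in control lungs, with a fold change of 3.09 ± 0.41 for silica against control (edgeR adjusted p = 0.0535; DESeq2 adjusted p = 2.41e-09). Cd14 was at 1.70 ± 0.52 (edgeR adjusted p = 0.525; DESeq2 adjusted p = 0.128).

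The iron handling and receptor lists had medians near that of all genes. Of 26 iron genes 17 were higher in silica than in control lungs (median 0.17). Of these, 3 were at an unadjusted p under 0.05 in edgeR, as were 5.98% of all genes in either direction. Hmox1, the heme-degrading oxygenase, averaged 48.3 ± 6.11 normalised CPM in silica_DMSO, 77.3 ± 21.8 in silica, 39.1 ± 12.04 in DMSO and 25.9 ± 7.44 in control lungs. Its fold change of 1.58 ± 0.33 for silica against control passed in DESeq2 (adjusted p = 0.00293) and not in edgeR (adjusted p = 0.213). Slc11a1, the phagosomal metal transporter NRAMP1, was at 1.83 ± 0.51 (edgeR adjusted p = 0.443). Of 18 tested receptor genes 11 were higher in silica than in control lungs (median 0.088), with 4 at an unadjusted p under 0.05 in edgeR, against the same 5.98%. Tlr2, a receptor for serum amyloid A, was at 2.01 ± 0.41 (edgeR adjusted p = 0.2; DESeq2 adjusted p = 0.00228), while Slc22a17, a receptor for lipocalin-2, was at -0.54 ± 0.47 and Cd163, the receptor of the haptoglobin-haemoglobin complex, at 0.42 ± 0.54.

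Inducers of the acute phase were higher in silica for 19 of 27 genes against control (median 0.27) and for 24 of 27 against DMSO (median 0.50). At an unadjusted p under 0.05 in edgeR 7 and 3 were higher, against 5.98% and 3.12% of all genes in either direction. Between DMSO and control lungs 11 of the 27 were higher in DMSO and 16 lower (median -0.21). Il1a was at 2.93 ± 0.76 for silica against control (edgeR adjusted p = 0.393; DESeq2 adjusted p = 0.0121) and Tnf at 2.01 ± 0.60 (edgeR adjusted p = 0.500). The whey acidic protein and antiprotease list holds relatives of Wfdc17 and also protease inhibitors of other families, such as Serpina1c and Spink5. Of its 15 tested genes, 10 were higher in silica than in control lungs (median 0.38) and 3 higher in silica than in DMSO lungs (median -1.01). Slpi, the secretory leukocyte protease inhibitor, averaged 235 ± 250 normalised CPM in silica_DMSO, 162 ± 112 in silica, 326 ± 451 in DMSO and 38.7 ± 23.8 in control lungs, and Wfdc21 was at 1.82 ± 0.87 for silica against control (edgeR adjusted p = 0.855). Of the 21 secreted antimicrobial genes 17 were higher in silica than in control lungs (median 0.92) and 6 higher in silica than in DMSO lungs (median -0.69). Ear6, an eosinophil-associated ribonuclease, averaged 5.26 ± 3.02 normalised CPM in silica_DMSO, 6.98 ± 4.22 in silica, 0.249 ± 0.181 in DMSO and 0.166 ± 0.0587 in control lungs. DESeq2 called it in silica against control (adjusted p = 4.81e-09) and edgeR did not (adjusted p = 0.0600). Ear1, a near relative whose reads may be shared with other Ear genes, was at -1.07 ± 0.34 (edgeR adjusted p = 0.543).

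**Figure D5:**
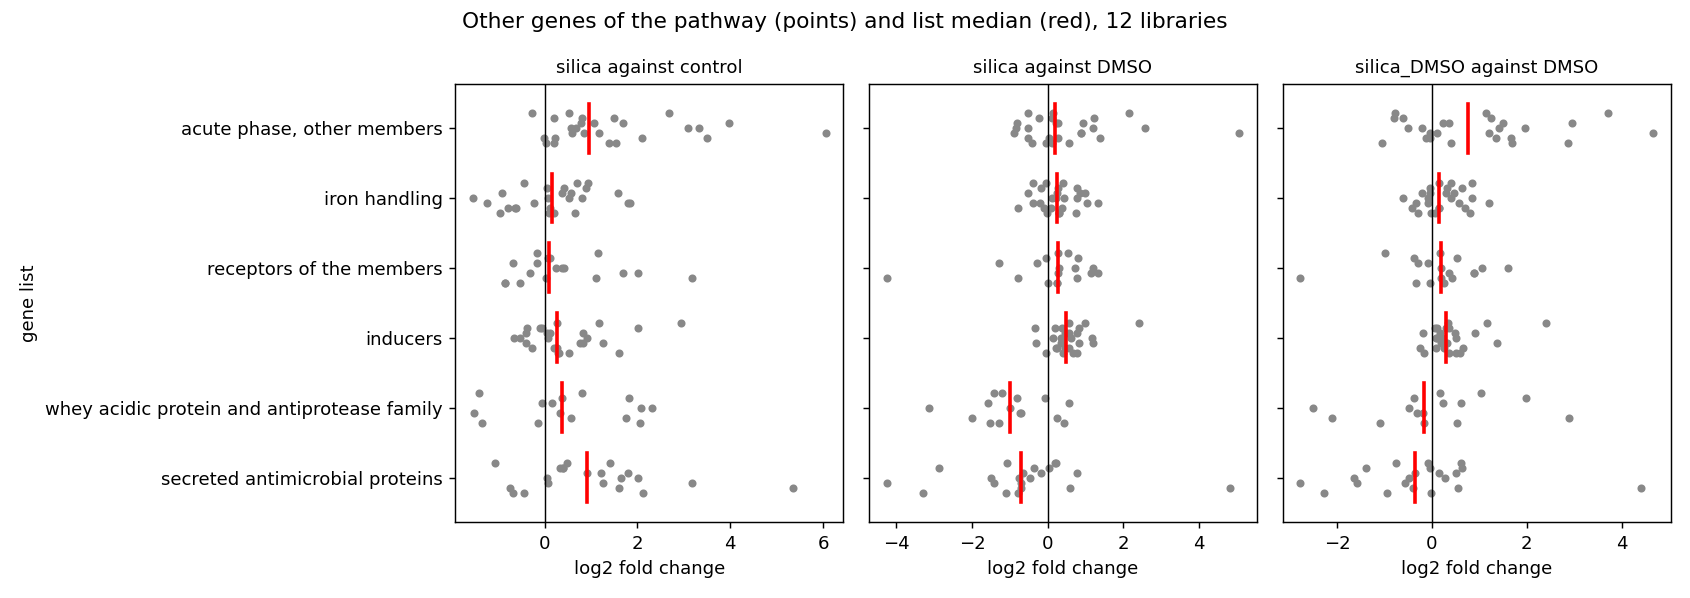
Log2 fold change of every tested gene (points) of 6 pathway lists, without the 6 genes described, and list medians (red), in 3 comparisons over 12 libraries. The median of the whey acidic protein and antiprotease list lies at 0.38 in silica against control and at -1.01 in silica against DMSO. That of the acute-phase list lies at 0.96 and 0.19.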

How the data were processed

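Lung RNA of 15 libraries was sequenced from total RNA with Illumina TruSeq kits per the labels, whose extraction notes describe retinas. The authors deposited 1 table of expected counts and 1 of TPM, with genes as rows. Gene length in bases is an other value deposited by the authors. Bowtie 0.12.2 and build mm8 stand in the submitters' processing notes; a counting program is not named there or in the labels. The 8 columns of the authors' group means were not used.

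Expected counts were rounded to whole numbers, which changed a library total by at most 53.9. Genes were filtered with filterByExpr (smallest count 10, smallest total 15), scaled by TMM and tested by quasi-likelihood (robust) in edgeR on 4 group means, with Benjamini-Hochberg adjustment over all 17630 genes and a threshold of 0.05. Normalised CPM are scaled by these TMM factors. DESeq2 was the other tool. Software was R 4.3.3, edgeR 4.0.16, limma 3.58.1, DESeq2 1.42.0, Python 3.11.15 and matplotlib 3.10.9. The fit was tested on simulated data. For the 6 genes, p-values were planned in silica_DMSO against DMSO and are not given, since the DMSO libraries entered the choice of the genes. Promoters were searched for motifs by letters.

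The 6 genes, the gene lists, the 12-library fit and the alternatives were chosen with earlier results of these data known, and leaving out silica_DMSO 5 and DMSO 4 together was chosen after seeing the data. From each list, up to 3 called genes or else the 2 genes of smallest p in silica against control with a mean of at least 1 CPM were named, and for each of the 6 genes the 3 most correlated genes (prior count 2). Slc22a17, Cd163, Alb, S100a8, S100a9, Cd177, Ngp, Camp, Elane, Mpo and Ctsg, and the genes in the observations, were named after their values were seen. The labels number the libraries and give no meaning to a shared number.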

Additional observations from a re-analysis of the deposited data

Results flagged for a closer look

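In 4 of 18 sets of 4 libraries (6 genes in the silica_DMSO, DMSO and control groups, scaled over all 15 libraries), 1 library lay far from its group. Chance alone marks about 1 in 20 such sets of normal values, and over all tested genes 14.6% were marked in silica_DMSO, 13.9% in DMSO and 14.5% in control libraries. The DMSO values entered the choice of the genes, and silica_DMSO 4, silica_DMSO 6 and DMSO 7, which hold thymus RNA, are among the libraries compared. Saa3 stood at 842 normalised CPM in silica_DMSO 5, against 11.8 to 62.0 in the other silica_DMSO libraries, and at 205 in DMSO 4, against 3.48 to 14.6 in the other DMSO libraries. Wfdc17 stood at 445 in silica_DMSO 5, against 19.8 to 32.5 in the others of the group. Ltf stood at 1251 in DMSO 4, against 7.58 to 162 in the others. Silica_DMSO 5 and DMSO 4 also have the smallest share of counts in genes over 3000 bases, 11.5% and 12.4%, and the smallest TMM factors, 0.506 and 0.653. Their part in these levels was not tested.

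In the libraries that hold thymus RNA and enter no comparison of the 12, 2 of the 6 genes exceeded the controls in CPM of the library total in some of them. The share of all genes that did so was not counted, and the controls are lung libraries without thymus RNA, so nothing is read from that count. Saa3 was at 25.7 CPM in silica_DMSO 4, against 4.39 to 19.5 CPM in control libraries. Wfdc17 was at 40.3 CPM in silica_DMSO 4 and 22.9 CPM in silica_DMSO 6, against 6.34 to 12.3 CPM in controls. In DMSO 7, thymus RNA without silica, Saa3 was at 5.23 and Wfdc17 at 11.03 CPM. Itih4 was at 4.83, 2.30 and 22.6 CPM in silica_DMSO 4, silica_DMSO 6 and DMSO 7.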

How the results depend on the processing

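Of 600 fold changes of the 6 genes under 20 alternatives, 50 turned sign: 0 in silica against control, 8 in silica against DMSO, 12 in silica_DMSO against DMSO, 25 in silica_DMSO against silica and 5 in DMSO against control. In silica against DMSO, Hp ran from -1.05 to 0.58. In silica_DMSO against DMSO those that turned included Lcn2 (-0.21 with 15 libraries, -0.46 with the replicate block), Hp (-0.29 with 15 libraries, -1.43 with the replicate block, -0.18 without silica_DMSO 5 and DMSO 4) and Wfdc17 (-1.37 with the replicate block). Leaving out 1 library at a time gave -0.24 to 5.66 for Saa3, -0.51 to 2.03 for Lcn2, -1.02 to 1.15 for Hp and -1.54 to 3.20 for Wfdc17. The causes were not tested. Without silica_DMSO 2 or 5, that group is a single library assumed to vary like the others.

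Genes called in silica against control were 2, and 0 with 15 libraries, 148 with DESeq2, 21 without the count filter, 11 with the gene length offset, 0 with the replicate block, 41 with only these groups and 40 without silica_DMSO 5 and DMSO 4. In silica against DMSO the 1 gene became 0 with 15 libraries, 30 with DESeq2, 2 with the length offset, 0 with the replicate block, 0 with only these groups and 0 without silica_DMSO 5 and DMSO 4. In silica_DMSO against DMSO the 0 genes became 10 with DESeq2 and 1 without the filter, and in DMSO against control 60 with DESeq2. Leaving out 1 library gave 1 to 13, 0 to 1, 0 to 3, 0 to 2 (silica_DMSO against silica) and 0 to 2 genes (DMSO against control). Same-numbered libraries correlated at -0.457 to 0.386, over 0.1 in 3 of 8 pairs, and 0 of 10 libraries correlated best with its own number, so the numbers were not taken as pairs.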

Other observations

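The proportion of lipocalin-2 to lactoferrin RNA differed between libraries. Per length, in TPM, Lcn2 exceeded Ltf 25.8 to 43.3 times in silica_DMSO, 23.4 to 64.8 times in silica, 3.83 to 9.60 times in DMSO and 8.39 to 41.0 times in control lungs, so that control 7 lay within the silica range and all DMSO lungs below it. Both genes are known from the same neutrophil granules.

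Other plasma protein genes of the acute phase, named after their values were seen, fell into different patterns. Itih1, which encodes another heavy chain of the family of Itih4, averaged 5.38 normalised CPM in silica_DMSO, 3.62 in silica, 1.88 in DMSO and 2.09 in control lungs (silica_DMSO against DMSO 1.51 ± 0.40 on the log2 scale, unadjusted p = 0.00280, not called by edgeR). The complement gene C3 averaged 1162, 1008, 438 and 629 normalised CPM in these groups (silica_DMSO against DMSO 1.41 ± 0.43, unadjusted p = 0.00750, not called by edgeR). Orm1, which encodes orosomucoid and whose reads may be shared with its close copies, averaged 16.1, 12.7, 22.9 and 1.27 normalised CPM, and was at 4.17 ± 1.16 in DMSO against control (edgeR adjusted p = 0.513), where DESeq2 called it. Socs3, the feedback inhibitor of IL-6 signalling, averaged 26.5 normalised CPM in silica_DMSO, 57.03 in silica, 25.1 in DMSO and 30.1 in control lungs, and was at -1.11 ± 0.41 in silica_DMSO against silica (edgeR adjusted p = 0.997).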
